A study of Mus musculus with 4 samples.

Results

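The RNA levels described here are those of the 2 cytosolic Hsp90 chaperones, of 6 of their co-chaperones and of 2 heat shock factors in spinal cord motor neurons of mice. The genes are Hsp90aa1, Hsp90ab1, Ptges3, Stip1, Ahsa1, Cdc37, Fkbp4, Chordc1, Hsf1 and Hsf2, chosen by symbol, and they are 10 of the 27189 genes in each file. Each symbol had 1 entry, and all 10 genes were among the 11530 with a mean RPKM (reads scaled to transcript length and to the mapped reads of the library) of at least 1, the genes tested between genotypes.

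RNA-Seq was carried out on 4 libraries, 2 per genotype, each from the motor neurons of 1 mouse at 3 months of age on a mixed C57BL/6J x SJL/J background. The wild-type libraries came from strain 592, transgenic for human wild-type SOD1 fused to YFP, and the G85R libraries from strain 737, transgenic for the same fusion with the G85R mutation, which causes amyotrophic lateral sclerosis. Both strains therefore carry a genomic human SOD1 fragment with YFP, none of the 4 libraries came from animals without a transgene, and mutation, strain and copy number of the transgene cannot be told apart. Large cell bodies of the ventral horn were captured by laser from stained frozen sections, and cells with large aggregates were left out in G85R animals, so the G85R libraries represent neurons without them.

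Hsp90 binds client proteins such as kinases and steroid hormone receptors late in their folding, in a cycle driven by ATP and directed by co-chaperones. Hsf1 is held inactive by chaperones including Hsp90 and, when unfolded proteins occupy these, forms trimers that bind heat shock elements and activate chaperone genes. Motor neurons are known for a high threshold of this response.

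Heat shock elements are rows of GAA units in alternating orientation. They were searched as 3 units (GAANNTTCNNGAA and TTCNNGAANNTTC) and as 2 units (GAANNTTC and TTCNNGAA) on both strands from 250 bases before to 50 bases after each start in RefSeq promoters of GRCm38.p6. Every match of 3 units also holds matches of 2 units. The table held 7 of the 10 genes, without Hsp90aa1, Hsp90ab1 and Hsf1. The matches in these 7 are printed here with those of Hspa1b and Dnaja1, heat shock genes whose RNA is described further on together with Dnajb1, which held neither pattern in its 2 promoters, with the units and the bases between them in capitals and the flanking bases in lower case.
Chordc1: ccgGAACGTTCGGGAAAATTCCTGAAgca
Fkbp4: ctaGAAAGTTCtcc
Cdc37: aacTTCCAGAAggc
Hspa1b: ctgGAAGATTCctg
Dnaja1: ctaGAAAATTCtac

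The stretch of Chordc1 lies at chr9:18292260-18292288 on the plus strand and holds 5 alternating units in 23 bases, from position -4 to 18 around the first transcribed base, which is position 0. It contains 3 overlapping matches of 3 units, a pattern found in 198 of all 32851 promoters (0.603%) and in 1 of the 7 promoters here. The printed stretch of Fkbp4, flanking bases included, lies at chr6:128438797-128438810 on the minus strand, and its match 151 to 144 bases before the start. The printed stretch of Cdc37 lies at chr9:21150094-21150107 on the minus strand, and its match 170 to 163 bases before the start. Counting Chordc1, 3 of the 7 promoters held at least 2 units, compared with 15.1% of all promoters. The printed stretches of Hspa1b (chr17:34959332-34959345, minus strand) and Dnaja1 (chr4:40722341-40722354, plus strand) likewise held 2 units. Stip1, Ahsa1, Ptges3 and Hsf2 held neither pattern in this window. A match is a description of the letters and does not show that a factor binds there.

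The libraries were alike in depth, with an estimated 21560318 to 25186594 reads on genes, and the RPKM of 1 read had a median over genes of 0.0195 to 0.0226. Chat, which makes acetylcholine and marks motor neurons, was at 66.3 and 81.2 RPKM in wild-type replicates 1 and 2 and at 49.6 and 65.5 in G85R replicates 1 and 2. All 8 motor neuron markers were tested and 0 were called, compared with 0.642% of all tested genes. They summed to 2472 and 2731 RPKM in the wild-type mice and 2205 and 2575 in the G85R mice. Of the 8, 1 was higher on average in G85R (45.3% of all tested genes), and 3 were lower without overlap (23.9% of all tested genes). Their median log2 fold change was -0.21, against -0.02 over all tested genes. Relative to the wild-type mean, this median was -0.35 in G85R replicate 1 and -0.05 in replicate 2. G85R replicate 1 stood apart in markers of astrocytes, microglia and oligodendrocytes. Its 7 astrocyte markers summed to 788 RPKM, against 479 to 506 in the other 3 libraries, and its Gfap was at 91.9 RPKM, against 11.5, 17.1 and, in G85R replicate 2, 28.4. Its 8 microglia markers summed to 38.8 RPKM (15.3 to 18.6 in the others), and its 7 measured oligodendrocyte markers to 1080 RPKM (832 to 905 in the others). None of the astrocyte, microglia and oligodendrocyte markers was at 0 in any library or called by limma, while the log-linear test described further on called Gfap and, named after their values were seen, the astrocyte marker Aldoc and the motor neuron marker Prph. Aldoc held most of each astrocyte sum, with 671 RPKM in G85R replicate 1 and 443 to 458 in the other libraries. Endothelial markers, of which 6 of 7 were in the files, summed to 11.0 and 11.3 RPKM in the wild-type mice and 9.95 and 9.17 in the G85R mice. Red blood cell markers, of which 3 of 5 were in the files, summed to 1.82 and 2.10 RPKM in the wild-type mice and 11.5 and 10.8 in the G85R mice. The part of these cells in the values below was not tested, and in such bulk samples fewer cells of a type and less RNA per cell cannot be told apart.

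Hsp90ab1 had by far the highest level, in the following order of mean RPKM over the 4 libraries: Hsp90ab1, Stip1, Ahsa1, Fkbp4, Cdc37, Chordc1, Hsf2, Hsf1, Ptges3 and Hsp90aa1. Neighbors in this order overlapped over the 4 libraries in 3 of 9 pairs, Stip1 with Ahsa1, Ahsa1 with Fkbp4, and Hsf2 with Hsf1. The mean of Hsp90ab1 was 3.23 times that of Stip1 and ranked 32nd among the tested genes, above 99.7% of them. Stip1, Ahsa1 and Fkbp4 were each above at least 97.9% of the tested genes, Hsf2 and Hsf1 above 66.2% and 64.7%, and Hsp90aa1 above 32.9%. Summed over all 10 genes, the RPKM was 1830 and 1706 in the wild-type mice and 2067 and 1881 in the G85R mice, between 0.439% and 0.527% of all RPKM, and Hsp90ab1 held 48.6% to 49.3% of the sum in every library.

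**Figure D1:**
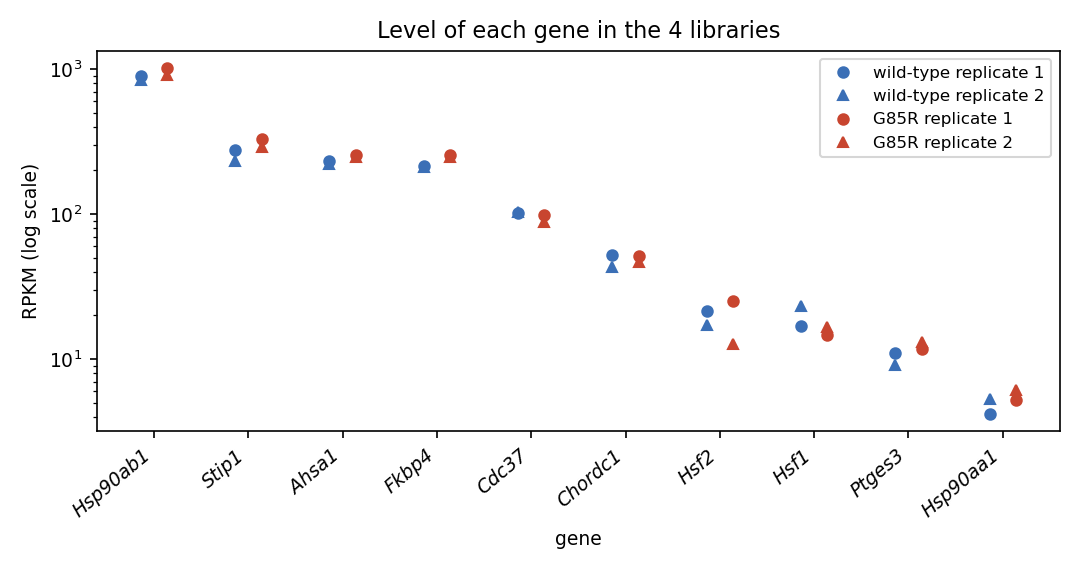
RPKM (log scale) of the 10 genes, ordered by mean level, in the 2 wild-type (blue) and 2 G85R (red) libraries; circles are replicates 1 and triangles replicates 2. Levels run from 1016 RPKM for Hsp90ab1 to 4.17 for Hsp90aa1, and the genotypes lie close together in each gene relative to the distance between genes.

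The lowest levels belong to genes with many copies of their sequence in the genome. The reads were 75 bases long, and a read from a stretch that occurs elsewhere cannot be assigned to 1 gene by its sequence. The study tallied reads that mapped to a single place in the genome, but how reads with several places entered the RPKM is not given in the sources used here. In the mm9 assembly (NCBIM37), 84.3% of the 75-base windows of the Hsp90aa1 transcript had another place in the genome with at most 2 mismatches, and 67.0% an identical one. For Ptges3 the shares were 72.1% and 54.6%. In the other 8 genes at most 15.5% of windows had such a place, with 15.3% in Hsp90ab1 and 0 in Cdc37, Fkbp4, Chordc1 and Hsf1. The levels of Hsp90aa1 and Ptges3 relative to the other genes are therefore uncertain, and the part of repeated sequence in them was not tested. Those of Hsf2 and Cdc37 are uncertain as well, because a short length lies behind their RPKM, as given with Hsf2 below.

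**Figure D2:**
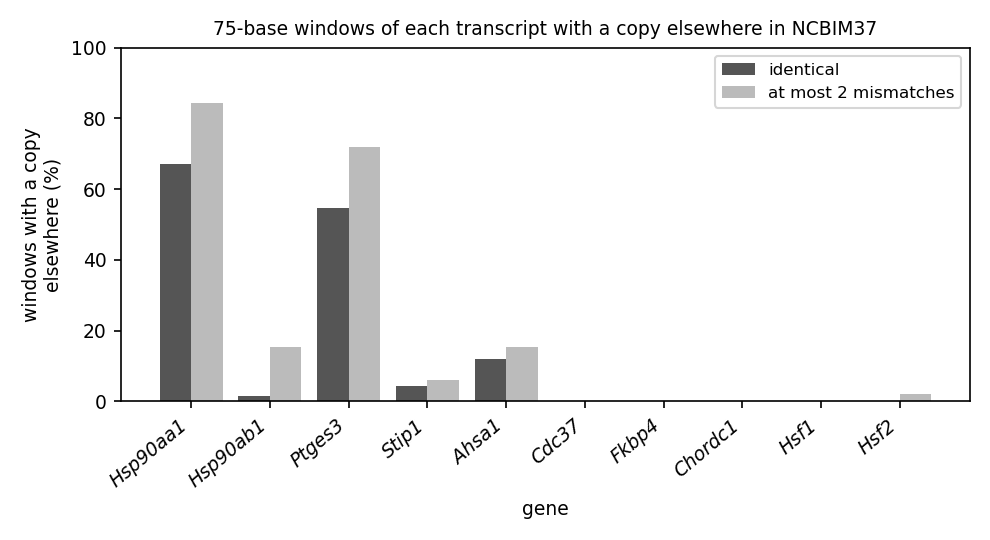
Share of the 75-base windows of each transcript, in percent, that occur elsewhere in the NCBIM37 assembly, identically (dark bars) or with at most 2 mismatches (light bars). Hsp90aa1 (84.3%) and Ptges3 (72.1%) stand above all other genes, and Cdc37, Fkbp4, Chordc1 and Hsf1 have no such window.

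To ask whether this chaperone system differed between the genotypes, the log2(RPKM + 0.1) values were compared with limma across all tested genes, with Benjamini-Hochberg adjustment. Of the 10 genes, 0 were called at an adjusted p under 0.05, compared with 0.642% of all tested genes (74 of 11530). With voom on the estimated reads, 0 of the 10 were called as well, compared with 0.824% of all tested genes, and with the replicate number as a block 0 of the 10, compared with 4.57%. Fkbp4 alone had an unadjusted p under 0.05 in the fit without block, 1 of 10 genes, where 11.0% of all tested genes did. Both G85R values lay outside the wild-type values in 7 of the 10 genes, above them in 5 and below them in 2. Over all tested genes this was the case for 41.2%, with 17.3% above and 23.9% below, and among the 763 genes with a mean of at least 100 RPKM for 40.1%, with 27.8% above. Of the 10 genes, only Hsp90ab1, Stip1, Ahsa1 and Fkbp4 reach that mean, and each of them was among the 5 above. The median log2 fold change of the 10 genes was 0.15, with 7 of 10 genes higher on average in G85R, against -0.02 and 45.3% over all tested genes. Relative to the wild-type mean, G85R replicate 1 had a median of 0.20 and replicate 2 one of 0.10.

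**Figure D3:**
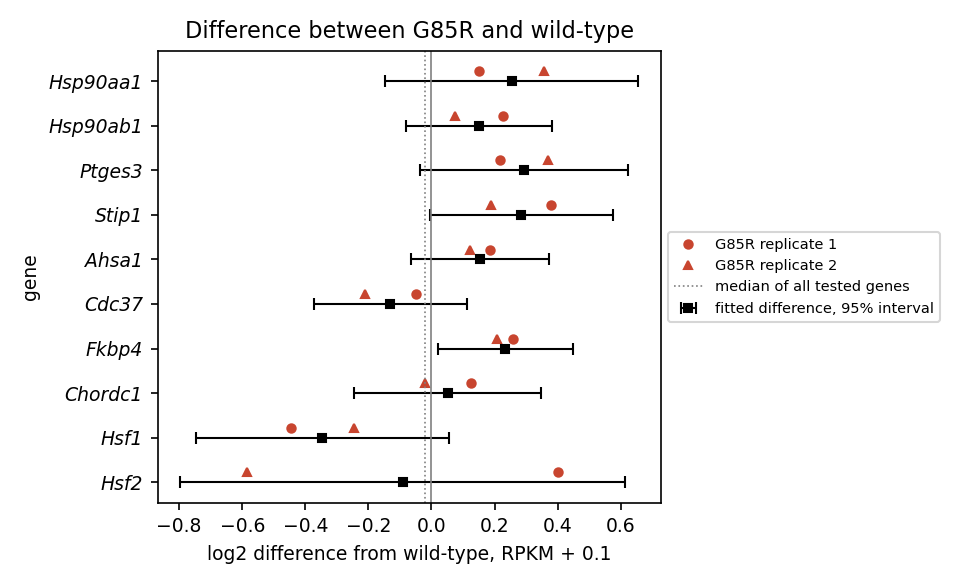
Log2 fold change of G85R over wild-type on the log2(RPKM + 0.1) scale with its 95% interval from limma (black squares and bars), and each G85R library relative to the wild-type mean (red). Only the interval of Fkbp4 leaves out 0, no gene was called after adjustment, and the 2 G85R libraries lie on opposite sides of 0 for Chordc1 and Hsf2.

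Hsp90ab1 encodes the constitutive form of cytosolic Hsp90 (724 codons; chr17:45704724-45710220, minus strand, mm9). It was measured at 896 and 840 RPKM in the wild-type mice and at 1016 and 914 in the G85R mice, from at least 65014 estimated reads per library. The G85R values lay above the wild-type values, although the lower of them was within 2.03% of the higher wild-type value. On the log2 scale G85R differed by 0.15 (SE 0.10, limma adjusted p = 0.658), or 1.11-fold with a 95% interval of 0.946 to 1.30.

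Hsp90aa1 encodes the stress-inducible form (733 codons; chr12:111928815-111940938, minus strand). Its RPKM was 4.17 and 5.34 in the wild-type mice and 5.26 and 6.08 in the G85R mice, from 344 to 487 estimated reads. The genotypes overlapped, since G85R replicate 1 lay between the wild-type replicates. The fold change was 1.19, with an interval of 0.904 to 1.57 (limma adjusted p = 0.673). Only 15.7% of its windows have no near copy. Within a library, the ratio of Hsp90aa1 to Hsp90ab1 was 0.00466 and 0.00636 in the wild-type mice and 0.00517 and 0.00665 in the G85R mice, and it overlapped between the genotypes.

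Stip1, also called Hop, carries clients from Hsp70 to Hsp90 (543 codons; chr19:7095186-7114516, minus strand). It was measured at 278 and 233 RPKM in the wild-type mice and at 331 and 291 in the G85R mice. Both G85R libraries were higher than both wild-type libraries. On the log2 scale G85R differed by 0.28 (SE 0.12, limma adjusted p = 0.462), or 1.22-fold with an interval of 0.996 to 1.49.

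Fkbp4, or FKBP52, is an immunophilin that joins Hsp90 to steroid hormone receptors (458 codons; chr6:128379753-128388695, minus strand). Its RPKM was 216 and 211 in the wild-type mice and 256 and 246 in the G85R mice. Replicates were closer than in the other genes with higher G85R values, and the genotypes were well apart. The log2 fold change of 0.23 (SE 0.09) had the lowest adjusted p of the 10 genes, 0.417 from limma, and corresponds to 1.18-fold with an interval of 1.01 to 1.36.

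Ahsa1 encodes Aha1, the co-chaperone that stimulates the ATPase of Hsp90 (338 codons; chr12:88607696-88614947, plus strand). It was measured at 232 and 220 RPKM in the wild-type mice and at 257 and 246 in the G85R mice, so the G85R libraries were higher without overlap. The fold change was 1.11, with an interval of 0.956 to 1.29 (limma adjusted p = 0.620).

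Ptges3 encodes p23, which stabilizes the closed, ATP-bound form of Hsp90 (160 codons; chr10:127496010-127514328, plus strand, overlapping Baz2a on the same strand). The RPKM was 11.0 and 9.14 in the wild-type mice and 11.7 and 13.0 in the G85R mice. Both G85R values were higher, the nearer one by little. The fold change of 1.22 had an interval of 0.974 to 1.54 (limma adjusted p = 0.511). With most of its windows repeated, this value rests on 555 to 721 estimated reads.

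Cdc37 recruits protein kinases to Hsp90 and was the only co-chaperone of the 6 with lower values in G85R (379 codons; chr9:20942985-20954350, minus strand). Its RPKM was 102 and 103 in the wild-type mice and 99.1 and 88.6 in the G85R mice. The G85R values lay below the wild-type values, with G85R replicate 1 close to them. On the log2 scale G85R differed by -0.13 (SE 0.10, limma adjusted p = 0.724), or 0.913-fold with an interval of 0.772 to 1.08.

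Chordc1 encodes morgana, a zinc-binding co-chaperone of Hsp90 and the gene with the row of 5 heat shock units shown above (331 codons; chr9:18096711-18118444, plus strand). It was measured at 51.9 and 43.4 RPKM in the wild-type mice and at 51.8 and 46.8 in the G85R mice. The genotypes overlapped, with both G85R values inside the wild-type range. The fold change was 1.04, with an interval of 0.843 to 1.27 (limma adjusted p = 0.942).

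Because a ratio within a library does not depend on its scaling, each co-chaperone was also set against the sum of Hsp90aa1 and Hsp90ab1. As measured, this sum is almost all Hsp90ab1, to which Hsp90aa1 had a ratio of 0.00466 to 0.00665. The level of Hsp90aa1 is uncertain, so the ratios are in effect ratios to Hsp90ab1. Cdc37 per Hsp90 was 0.113 and 0.122 in the wild-type mice and 0.0971 and 0.0963 in the G85R mice, a log2 difference of -0.28. The corresponding ratio of Stip1 was 0.309 and 0.276 in the wild-type mice and 0.324 and 0.316 in the G85R mice. Cdc37 was thus lower and Stip1 higher without overlap, while Ahsa1 per Hsp90 had a log2 difference of 0.00. Of the 8 ratios compared, which include Hsp90aa1 to Hsp90ab1 and Hsf2 to Hsf1, 4 did not overlap between the genotypes, those of Stip1 and Fkbp4 being higher and those of Cdc37 and Chordc1 lower in G85R. This is near the 41.2% of single tested genes without overlap, and 6 of the ratios share 1 denominator, in which Hsp90ab1 was itself higher in both G85R libraries. A two-sided exact permutation test gave p = 0.333 for each of these 4, the smallest that 2 libraries against 2 allow, so none can pass 0.05.

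Hsf1 is the main activator of the heat shock response (525 codons; chr15:76307865-76331402, plus strand). Its RPKM was 17.0 and 23.2 in the wild-type mice and 14.6 and 16.7 in the G85R mice. The G85R libraries were lower without overlap, but G85R replicate 2 was close to wild-type replicate 1. On the log2 scale G85R differed by -0.35 (SE 0.17, limma adjusted p = 0.525), or 0.786-fold with an interval of 0.596 to 1.04. The size rested on wild-type replicate 2, without which the log2 fold change was -0.12.

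Hsf2 acts in development and can form mixed trimers with Hsf1 (535 codons; chr10:57206191-57232939, plus strand). It was measured at 21.3 and 17.1 RPKM in the wild-type mice and at 25.2 and 12.7 in the G85R mice. The highest and the lowest value were both G85R libraries, so the genotypes overlapped. The fold change was 0.938, with an interval of 0.576 to 1.53 (limma adjusted p = 0.956), and the log2 fold change was 0.40 without G85R replicate 2. These values rest on 161 to 300 estimated reads, the fewest of the 10 genes. The length behind the RPKM was 0.180 of the annotated transcript, against 0.450 in Cdc37 and 0.739 to 1.07 in the other genes, relative to a median of 149 genes. A short length raises the RPKM of a given number of reads. The place of Hsf2 in the order of levels, its rank and the size of its ratio to Hsf1 therefore depend on this length.

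The log-linear likelihood ratio test, which treats the rounded RPKM as counts, called 0 of the 10 genes after adjustment, compared with 0.228% of all 27189 genes (62). The lowest adjusted p in this test was 0.273, for Stip1. Before adjustment, 3 of the 10 genes, Hsp90ab1, Stip1 and Fkbp4, had a p under 0.05. This was the case for 2.95% of the tested genes. Among those with a mean of at least 100 RPKM it was 20.7%, but of the 10 genes only these 3 and Ahsa1 reach that mean.

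The wider set of Hsp90 paralogs and co-chaperones had 34 genes, of which 33 were in the files and 30 were tested. Of these, 0 were called by limma or by the log-linear test, and 3 had an unadjusted p under 0.05 with limma, near the 11.0% of all tested genes. The median log2 fold change was -0.02, with single genes between -0.49 and 0.39, and 12 of 30 were higher on average in G85R. The extremes were Unc45a, a myosin chaperone that works with Hsp90, at 31.8 and 41.0 RPKM in the wild-type mice and 23.6 and 27.9 in the G85R mice (log2 fold change -0.49, limma adjusted p = 0.308), and Cacybp, at 94.8 and 72.6 in the wild-type mice and 118 and 100.4 in the G85R mice (0.39, limma adjusted p = 0.417). With the replicate number as a block both were called (limma adjusted p = 0.0126 for Unc45a and 0.0242 for Cacybp). These were 2 of 30 genes, where 4.57% of all tested genes were called in that fit. Of the windows of Cacybp, 39.8% have a near copy. Ruvbl2, an ATPase of the R2TP complex that cooperates with Hsp90, had a log2 fold change of -0.35 (limma adjusted p = 0.321).

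Other heat shock factors and their binding proteins comprised 6 genes, of which 4 were in the files, 2 were tested and 0 called, at an unadjusted p under 0.05 or in the log-linear test as well. Hsbp1, a small protein that binds the trimer of Hsf1, was at 131 and 116 RPKM in the wild-type mice and 149 and 137 in the G85R mice (log2 fold change 0.21, limma adjusted p = 0.539). Hsf4 had a log2 fold change of 0.18 (limma adjusted p = 0.703).

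Target genes of heat shock factors other than the 10 genes were tested as 20 of 22 listed, of which 3 rose, compared with 0.269% of all tested genes called higher, and 0 fell. Hspa1b, an inducible Hsp70, was at 0.986 and 1.29 RPKM in the wild-type mice and 4.40 and 4.44 in the G85R mice (log2 fold change 1.88, limma adjusted p = 0.0128). Dnaja1, an Hsp40 partner of Hsp70, was at 23.1 and 18.4 RPKM in the wild-type mice and 39.0 and 38.4 in the G85R mice (0.91, limma adjusted p = 0.0480). Dnajb1, an inducible Hsp40, was at 42.8 and 48.0 RPKM in the wild-type mice and 81.0 and 72.3 in the G85R mice (0.75, limma adjusted p = 0.0489). In these 3 genes all G85R libraries were far above all wild-type libraries, which goes with their being named because they were called. The distances in Hsp90aa1 and Hsp90ab1 were smaller, but these 2 were chosen by symbol, and the level of Hsp90aa1 is uncertain. The difference in response was not tested.

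These calls depended on the settings. Hspa1b had an adjusted p of 0.305 from limma without the filter on low RPKM and was not called in the log-linear test, which called Dnajb1, Hspa8 and, named after its values were seen, Hsp110 (Hsph1 in the annotation). Hsp110 was at 175 and 151 RPKM in the wild-type mice and 245 and 240 in the G85R mice (log2 fold change 0.57, limma adjusted p = 0.0899). Its share of windows with a near copy is 0. The study reports its rise among the largest changes found by both RNA-Seq and qRT-PCR. Dnaja1 had an adjusted p of 0.0579 from limma without G85R replicate 1 and 0.0650 without wild-type replicate 2, and Dnajb1 0.114 without G85R replicate 1 and 0.0805 without wild-type replicate 1. Hspa1a, the other inducible Hsp70, had 1.94 and 2.12 RPKM in the wild-type mice and 4.20 and 3.97 in the G85R mice (log2 fold change 0.98, limma adjusted p = 0.0609). Of the windows of Hspa1b and Hspa1a, 74.7% and 70.4% have a near copy, so reads of these genes are uncertain. For Dnaja1 this share is 31.2%, and for Dnajb1 it is 0. Hspa8, the constitutive Hsp70, had 0.837 and 0.709 RPKM in the wild-type mice and 1.73 and 82.9 in the G85R mice, so its log2 fold change of 3.82 (limma adjusted p = 0.417) came from G85R replicate 2 (1.07 when that library was left out), and 83.6% of its windows have a near copy. The study itself did not evaluate this gene, because of its processed pseudogenes. The median over the 20 target genes was 0.42, with 19 higher on average in G85R and 13 of them higher without overlap, compared with 17.3% of all tested genes. An unadjusted p under 0.05 in limma was found for 12 target genes, all of them higher, compared with 4.66% of all tested genes higher at this p. Hspa8 is in each of these counts. Its wild-type mean of 0.773 RPKM was below 1, so it passed the filter through G85R and is higher there by construction. In 7 of the 20 target genes most windows have a near copy: Hspa1a, Hspa1b, Hspa8, Hspb1, Hspd1, Hspe1 and Ubb. All of these but Hspb1 and Ubb are among the 13 higher without overlap, and of those all but Hspd1 are among the 12. The counts therefore include uncertain values.

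**Figure D4:**
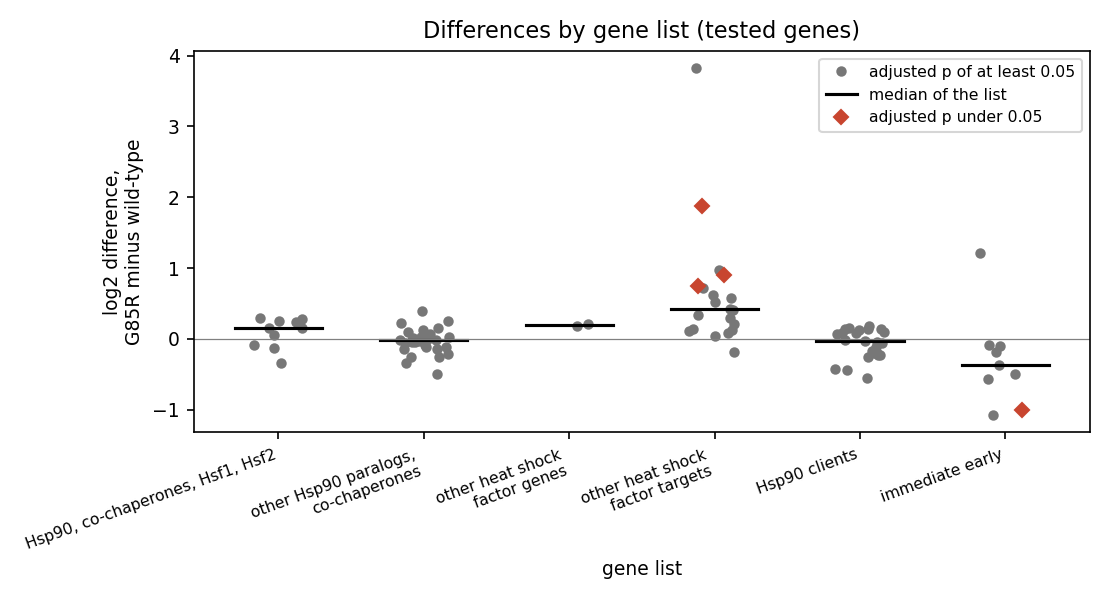
Log2 fold change of G85R over wild-type for the tested genes of 6 lists (points), with genes at a limma adjusted p under 0.05 as red diamonds and the median of each list as a black line. The median is 0.15 for the 10 genes described and 0.42 for the other heat shock factor targets, in which 3 of 20 genes were called, and the point at 3.82 is Hspa8.

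Hsp90 clients were measured for all 30 genes listed, and 24 were tested. Of these, 0 were called by limma or by the log-linear test and 3 had an unadjusted p under 0.05 with limma, all of them lower. Of all tested genes 11.0% had such a p and 6.37% were lower at it, so 3 of 24 is near the share over all genes. Without overlap between the genotypes, 8 of the 24 were higher and 9 lower in G85R, compared with 17.3% and 23.9% of all tested genes. The median log2 fold change was -0.03. The largest differences were in Akt2, a kinase of insulin signaling, at 2.64 and 2.58 RPKM in the wild-type mice and 1.80 and 1.68 in the G85R mice (log2 fold change -0.56, limma adjusted p = 0.308), in Eif2ak4, the amino acid sensor Gcn2 (-0.44, limma adjusted p = 0.341), and in Lrrk2, a kinase linked to Parkinson disease (-0.42, limma adjusted p = 0.341). Of the windows of Akt2, 55.2% have a near copy, so its values are uncertain.

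Immediate early genes respond to neuronal activity and stress within minutes, and 9 of 15 were tested. Fos fell from 14.1 and 18.03 RPKM in wild-type to 8.27 and 7.55 in G85R (log2 fold change -1.004, limma adjusted p = 0.0482), the 1 gene called, compared with 0.373% of all tested genes called lower. This call was lost without wild-type replicate 2 (limma adjusted p = 0.0841), without trend, after median ratio rescaling or quantile normalization, with a minimum mean RPKM of 0.1 or 5 or no filter, and in the log-linear test, that is in 8 of 18 alternatives. Arc, an effector at synapses, had 4.12 and 5.51 RPKM in the wild-type mice and 2.24 and 2.18 in the G85R mice (-1.07, limma adjusted p = 0.0734). Atf3, a stress-induced factor, was at 0.675 and 2.12 RPKM in the wild-type mice and 3.05 and 2.85 in the G85R mice (1.22, limma adjusted p = 0.389). The median of the list was -0.36.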

How the data were processed

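RNA-Seq was carried out on laser-captured motor neuron cell bodies of 4 mice. The authors mapped single-end reads of 75 bases with Bowtie 0.12.3 to mm9 and a splice junction database and quantified each gene with Cufflinks. The deposited values are RPKM per gene and library, as calculated and with 1 read added, and the authors' RPKM were used without change. The 2 values differ by the RPKM of 1 read, and dividing by it gave an estimate of the reads of a gene. Of the low estimates 53.2% to 53.9% were whole (within 0.01 read), so they are no counts and no counting interval was computed.

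Libraries were grouped by genotype. The main test was two-sided, with limma 3.58.1 under R 4.3.3 (lmFit, eBayes with trend). It used log2(RPKM + 0.1) where the mean RPKM reached 1, and calls were made at an adjusted p under 0.05 after Benjamini-Hochberg adjustment over these. This scale understates changes of low genes. With 1 mouse per library and 2 per genotype, p-values measure only the spread between these libraries. The log-linear test was a Poisson likelihood ratio test of the RPKM with 1 read added, rounded, and adjusted over all genes. Windows were compared with all of NCBIM37, in which 149 of 150 genes of the lists were placed. Promoters came from the RefSeq table (GRCm38.p6), and no coordinate was converted between builds. Python 3.11.15, numpy 2.4.6, pandas 2.3.3, scipy 1.17.1 and matplotlib 3.10.9 were used, and the fits were tested on simulated data.

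The 10 genes and the lists were chosen with earlier results of these data known. Named besides the 10 are called genes of the other lists, the 3 tested genes of each with the largest fold change, and of the markers Chat and Gfap. Alternatives were other pseudocounts, filters, normalizations, eBayes settings and thresholds, a replicate block, voom, the log-linear test and leaving out each library. The target list without Hspa8 was added after seeing the data.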

Additional observations from a re-analysis of the deposited data

How the results depend on the processing

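None of the 10 genes was called under any alternative, and their fold changes kept direction in all of them except for Chordc1 and Hsf2. The log2 fold change of Chordc1 was -0.022 without G85R replicate 1 and -0.078 without wild-type replicate 2 (up to 0.18 with other libraries left out). That of Hsf2 was 0.40 without G85R replicate 2 and 0.067 without wild-type replicate 1 (down to -0.58 without G85R replicate 1). With 1 library left out, 6 to 8 of the 10 genes were higher on average in G85R. Their median was 0.18 after median ratio rescaling and 0.10 after quantile normalization, and it was also 0.10 without G85R replicate 1.

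Over all tested genes 142 were called at an adjusted p under 0.1, 49 without trend, 17 with a minimum mean RPKM of 5, 112 without filter, 39 after quantile normalization, and 78 to 188 with 1 library left out, when the lone library is assumed to vary like the others. Of the other targets, in the same order, 5, 1, 0, 0 and 1 were called, 5 with voom and 2 to 3 with 1 library left out. Of the immediate early genes 2 were called at an adjusted p under 0.1, with robust estimation and with voom, 0 without trend, in the log-linear test, after median ratio rescaling, with a minimum of 0.1 or 5, without filter and after quantile normalization, and 1 to 2 with 1 library left out. Without overlap between genotypes were 5 to 7 of the 8 ratios with 1 library left out, against 4 with all. A lone library only has to lie outside the range of 2, which makes non-overlap more frequent by design. These counts of ratios therefore cannot be compared. The cause of the differences in calls was not tested.

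When the replicate number was added as a block, 527 genes were called by limma, 4.57% of all tested genes. Among them were 9 of the other targets, 2 immediate early genes and 2 of the other co-chaperones (Unc45a, limma adjusted p = 0.0126, and Cacybp, limma adjusted p = 0.0242). Of the 10 genes 0 were called, and Stip1 had the lowest limma adjusted p of them, 0.0680. Deviations of same-numbered libraries correlated at r = 0.22 across genes. The study plots same-numbered replicates as pairs. No source says what a number shares, and there are only 2 such pairs, so the numbers were not taken as a pairing. Without Hspa8, an alternative chosen after seeing the data, 3 targets were called as before. Depth limits Hsf2 and Hsp90aa1 most, with 161 to 487 estimated reads.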

Other observations

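Hbb-b1, a globin of red blood cells named here after its values were seen, was the 1 marker gene called by limma, at 1.75 and 2.00 RPKM in wild-type and 10.7 and 10.2 in G85R (log2 fold change 2.42, adjusted p = 0.00173), and 37.5% of its windows have a near copy. Heat shock elements of 3 units were found in 4 of 26 promoters of the other target genes (15.4%), which hold only 2 distinct stretches, since Hspd1 and Hspe1 share 1 on opposite strands and both promoters of Hsph1 the other. Such elements were found in 0 of 35 promoters of the other co-chaperones and in 0 of 32 of the clients.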
